A study of Gallus gallus with 8 samples.

Results

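The genes described here are 9 transcription factors that set the course of skeletal muscle development, followed in engineered chick muscle tissues after 3 weeks and after 1 week of differentiation. They were chosen by name and not by a threshold on any value, although earlier results of these data were known. All 9 were present among the 17775 genes of the deposited count table and the 15394 genes of the deposited normalized table. They were grouped by role into progenitor factors (*PAX7* and *PAX3*), commitment factors (*MYF5* and *MYOD1*), late differentiation factors (*MYOG* and *MYF6*), and the MEF2 factors (*MEF2A*, *MEF2C*, and *MEF2D*). The data are bulk RNAseq of 3 tissues at week 3 (differentiation day 21) and 5 tissues at week 1 (differentiation day 7), named by week and replicate as 3-1 to 3-3 and 1-1 to 1-5. All tissues were unmodified primary *Gallus gallus* cells: myoblasts taken from E10 chick thigh, enriched by pre-plating, and differentiated in low serum on gelatin-transglutaminase hydrogels. Pre-plating leaves some cells other than myoblasts, no motor neurons were added, and the sources used here do not give the number of myoblast harvests, so harvest and week cannot be told apart.

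In the embryo, PAX3 and PAX7 mark muscle progenitors, and PAX7 continues to mark the satellite cells that remain beside adult fibers. Progenitors commit to the muscle lineage through MYF5 and MYOD1, which are basic helix-loop-helix (bHLH) proteins that bind E-box DNA together with E proteins. Myogenin, encoded by *MYOG*, then drives terminal differentiation and fusion into myotubes, and MYF6 (also called MRF4) is the member of the family that is most prominent in mature fibers. The MEF2 proteins are MADS-box factors that act with the bHLH factors on genes of the contractile apparatus and of muscle metabolism.

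The total of estimated counts was between 15447904 and 18902561 in week 3 tissues and between 14368710 and 16545497 in week 1 tissues. Of 12 genes listed as markers of muscle, 7 were matched, none of these was at 0, and their summed normalized expression was 13858 to 14031 FPKM-UQ at week 3 and 15498 to 21916 FPKM-UQ at week 1. The sum is weighted toward the markers with the highest values, and 5 of the 7 did not pass the test described below. Tissue 1-1 stood apart from the other week 1 tissues, so results that rest on it are also given without it. Normalized expression is given in FPKM-UQ, the name of the normalized values in the deposited table, in which the estimated count plus 1 is divided by a single factor per tissue. Gene length does not enter this unit, so values are compared between weeks for a given gene and not between genes. A fold change stands for week 3 over week 1, from edgeR's quasi-likelihood test on the estimated counts of all genes, and an adjusted p below 0.05 over the 14311 genes tested was taken as a change. Whether the replicates came from separate harvests is not given in the sources used here, so the p-values measure the spread between these tissues only. Means are given ± SD over the 3 tissues of week 3 and the 5 tissues of week 1.

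Of the 9 regulators, 5 were lower at week 3 (*PAX7*, *MYF5*, *MYOD1*, *MEF2A*, and *MEF2D*), 3 did not pass the test (*MYOG*, *MYF6*, and *MEF2C*), and *PAX3* had too few counts to be tested. No regulator was called higher in edgeR's quasi-likelihood test, although 2 with higher values at week 3, *MYOG* and *MYF6*, had unadjusted p-values of 0.037 and 0.013, and DESeq2 and limma called *MYF6* higher. Among all genes tested, 23.5% were called in either direction and 12.0% were called lower, against 5 of the 8 regulators tested. The median log2 fold change was −0.41 over the 8 regulators and −0.01 over all genes tested. The fall was several-fold for *PAX7* and *MYF5*, and it was between 1.29-fold and 1.43-fold for the other 3. Where a fold change above 1.5 was required with an unadjusted p under 0.05, 14.6% of all genes tested passed and 7.39% passed as lower. Of the regulators *PAX7* and *MYF5* passed, both as lower.

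**Figure D1:**
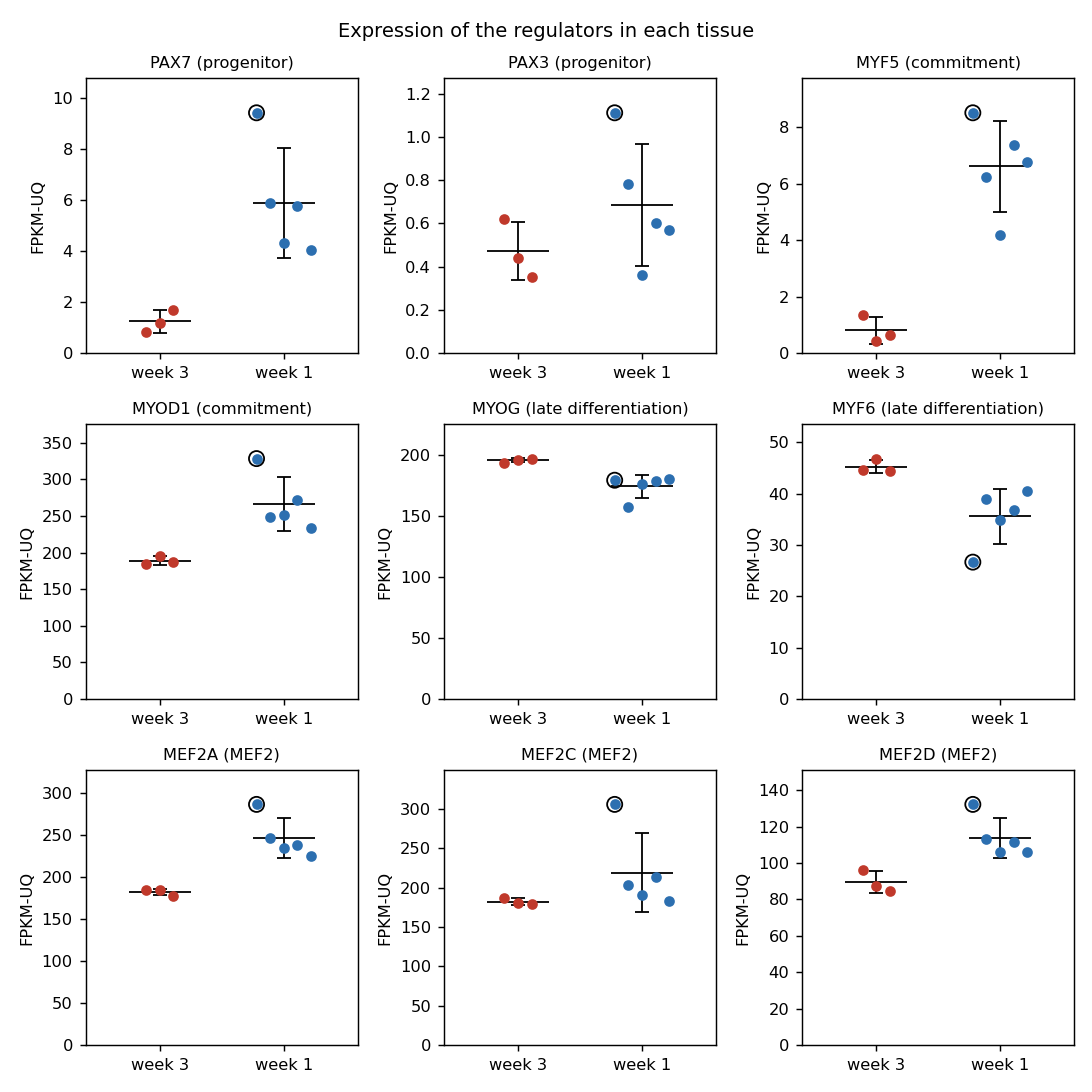
Normalized expression (FPKM-UQ, each axis starting at 0) of the 9 regulators in 3 week 3 tissues (red) and 5 week 1 tissues (blue), with the mean and SD in black and tissue 1-1 circled. The weeks do not overlap for any gene except *PAX3* and *MEF2C*, and tissue 1-1 is the highest week 1 tissue for 7 of the 9 genes.

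*PAX7* (chromosome 21, 4449679 to 4535825, plus strand, GRCg6a) encodes the paired-box factor of satellite cells and their embryonic precursors. Its FPKM-UQ was 0.825, 1.20, and 1.71 in week 3 tissues 3-1 to 3-3, against 9.41, 5.89, 4.30, 5.75, and 4.06 in week 1 tissues 1-1 to 1-5. Every week 3 tissue lay below every week 1 tissue, with the highest of week 3 at 1.71 and the lowest of week 1 at 4.06. These values rest on 15, 18, and 28 counts at week 3 and on 56 to 143 counts at week 1. The log2 fold change was −2.31 (SE 0.35, edgeR adjusted p = 6.9e-04), a 4.96-fold fall. An exact two-sided permutation test of FPKM-UQ over the 56 splits of the tissues gave p = 0.0357, the smallest value this design can give. Only 0.832% of all genes tested had a lower fold change than *PAX7*. Tissue 1-1 was 1.88 times the mean of the other week 1 tissues, and without it the log2 fold change was −2.07 (edgeR adjusted p = 3.0e-06). In bulk tissues, fewer cells that express a gene and less RNA of that gene per cell cannot be told apart, and this holds for every value given here.

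*PAX3* (chromosome 9, 8034728 to 8096206, minus strand), the factor that marks migrating limb muscle progenitors, was close to the limit of detection at both weeks. Its FPKM-UQ was 0.619, 0.442, and 0.354 in tissues 3-1 to 3-3, against 1.11, 0.780, 0.363, 0.602, and 0.569 in tissues 1-1 to 1-5. The weeks overlapped, and no tissue had more than 16 counts. *PAX3* did not pass the filter on low counts, and with no filter its log2 fold change was −0.57 (SE 0.53, edgeR adjusted p = 0.52). A difference was therefore not detectable at this depth, and the exact two-sided permutation test gave p = 0.32.

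*MYF5* (chromosome 1, 40085112 to 40086327, plus strand), an early commitment factor that is also expressed in activated satellite cells, had the largest fold change of the 8 regulators tested. Its FPKM-UQ was 1.34, 0.442, and 0.650 in tissues 3-1 to 3-3, against 8.50, 6.24, 4.18, 7.36, and 6.76 in tissues 1-1 to 1-5. The corresponding estimated counts were 25, 6, and 10 at week 3, against 129, 87, 68, 109, and 94 at week 1. The weeks did not overlap, and the spread between tissues relative to the mean was larger at week 3, with a coefficient of variation of 58.0%, than at week 1, with 24.2%. At 6 to 25 counts, spread from low counts enters the week 3 value and was not separated from differences between tissues. The log2 fold change was −3.08 (SE 0.36, edgeR adjusted p = 1.2e-04), an 8.44-fold fall, and the exact two-sided permutation test gave p = 0.0357. *MYF5* ranked 54 from the lowest fold change among the 14311 genes tested. Leaving out any single tissue kept the edgeR adjusted p at 0.0016 or below.

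*MYOD1* (chromosome 5, 12395624 to 12398843, plus strand), which can turn other cell types into muscle when expressed in them, was also lower at week 3. Its FPKM-UQ was 184.4, 195.4, and 187.4 in tissues 3-1 to 3-3, against 328.4, 248.7, 251.8, 271.3, and 234.0 in tissues 1-1 to 1-5. Each week 3 tissue was below each week 1 tissue, and the week 3 tissues lay within a narrow range. The log2 fold change was −0.51 (SE 0.10, edgeR adjusted p = 0.0039), a 1.43-fold fall, and the exact two-sided permutation test gave p = 0.0357. Without tissue 1-1, the highest of all, the log2 fold change was −0.42 (edgeR adjusted p = 1.2e-06).

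The late differentiation factors had slightly higher values at week 3 but did not pass the test. *MYOG* (chromosome 26, 978298 to 981813, minus strand) had an FPKM-UQ of 194.0, 196.5, and 197.4 in tissues 3-1 to 3-3, against 179.7, 158.0, 176.7, 179.3, and 180.4 in tissues 1-1 to 1-5. The ranges did not overlap, and the nearest tissues of the weeks, 3-1 and 1-5, were 194.0 and 180.4. The log2 fold change was 0.15 (SE 0.06, edgeR adjusted p = 0.11), while the exact two-sided permutation test gave p = 0.0357. Without tissue 1-1, the log2 fold change of *MYOG* was 0.16 and its adjusted p was 0.018 in the same edgeR test. Tissue 1-1 was the second highest of week 1 for this gene, and the edgeR adjusted p with any other tissue left out was between 0.12 and 0.26.

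*MYF6* (chromosome 1, 40080215 to 40081941, plus strand) had an FPKM-UQ of 44.6, 46.8, and 44.5 in tissues 3-1 to 3-3, against 26.7, 39.0, 34.8, 36.8, and 40.6 in tissues 1-1 to 1-5. The weeks did not overlap, and tissue 1-1 was the lowest, at 0.706 times the mean of the other week 1 tissues. The log2 fold change was 0.34 (SE 0.11, edgeR adjusted p = 0.053), just outside the threshold. Without tissue 1-1 it was 0.25 with an adjusted p of 0.0077, and without tissue 1-5 it was 0.39 with an adjusted p of 0.039 in the same edgeR test. Among the other settings tried, 5 also placed *MYF6* below 0.05.

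*MYF6* and *MYF5* lie next to each other on chromosome 1 in the same orientation, with 3170 bases between the end of *MYF6* and the start of *MYF5*. The other genes listed next to this pair were *PTPRQ*, which encodes a receptor phosphatase, and *LIN7A*, which encodes a scaffold protein of cell junctions. Their log2 fold changes were 0.27 for *PTPRQ* (SE 0.27, edgeR adjusted p = 0.51) and 0.57 for *LIN7A* (SE 0.20, edgeR adjusted p = 0.055). Of the 4 genes in this stretch, *MYF5* alone passed the test, and no other listed gene overlapped any of the 9 regulators.

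**Figure D2:**
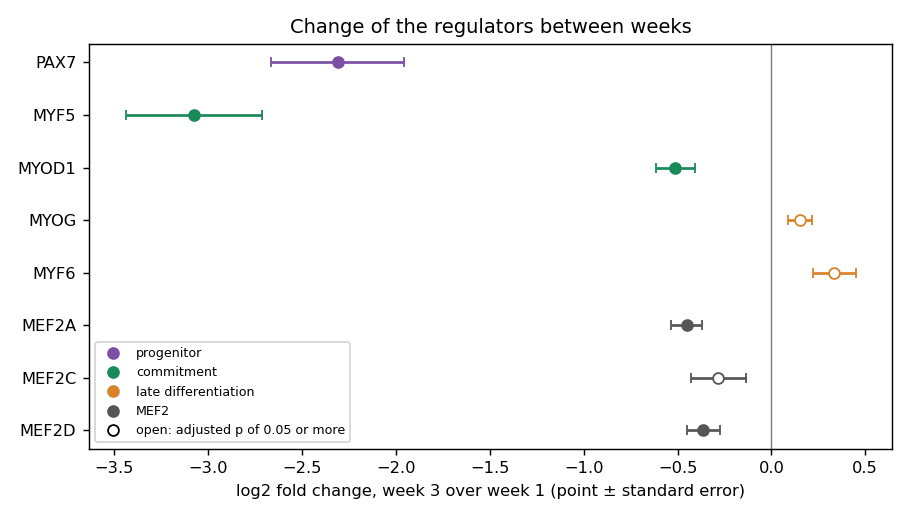
Log2 fold change of the 8 regulators tested, week 3 over week 1, as points with the standard error, coloured by role, with open points where the adjusted p was 0.05 or more. *MYF5* (−3.08) and *PAX7* (−2.31) lie far to the left, *MYOD1*, *MEF2A*, and *MEF2D* lie between −0.51 and −0.36, and *MYOG* (0.15) and *MYF6* (0.34) lie to the right of 0.

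Of the MEF2 factors, *MEF2A* and *MEF2D* were lower at week 3. *MEF2A* (chromosome 10, 17440756 to 17515526, plus strand) had an FPKM-UQ of 183.7, 184.1, and 177.2 in tissues 3-1 to 3-3, against 286.0, 245.8, 234.3, 238.2, and 224.8 in tissues 1-1 to 1-5. Every week 3 tissue was below every week 1 tissue, with the nearest tissues at 184.1 and 224.8. Its log2 fold change was −0.45 (SE 0.08, edgeR adjusted p = 0.0023), and the exact two-sided permutation test gave p = 0.0357. Without tissue 1-1, the log2 fold change of *MEF2A* was −0.39 (edgeR adjusted p = 1.7e-06).

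*MEF2D* (chromosome 25, 2742938 to 2796049, minus strand) had an FPKM-UQ of 96.4, 87.3, and 84.6 in tissues 3-1 to 3-3, against 132.2, 113.4, 106.0, 111.4, and 105.9 in tissues 1-1 to 1-5. The weeks did not overlap, but tissue 3-1 was within 10 FPKM-UQ of tissue 1-5. The log2 fold change was −0.36 (SE 0.09, edgeR adjusted p = 0.011), and it was −0.30 without tissue 1-1 (edgeR adjusted p = 2.7e-04). The call was lost without tissue 3-2 (−0.35, edgeR adjusted p = 0.057) or tissue 3-3 (−0.32, edgeR adjusted p = 0.066).

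*MEF2C* (chromosome Z, 60517700 to 60640681, plus strand), which is required for muscle and heart development in mice, was the MEF2 factor that did not pass the test. Its FPKM-UQ was 187.1, 180.4, and 179.5 in tissues 3-1 to 3-3, against 306.1, 202.9, 190.3, 214.2, and 183.6 in tissues 1-1 to 1-5. The weeks overlapped, since tissue 1-5 lay below tissue 3-1, and tissue 1-1 was 1.55 times the mean of the other week 1 tissues. Its log2 fold change was −0.28 (SE 0.15, edgeR adjusted p = 0.19), and it was −0.13 without tissue 1-1 (edgeR adjusted p = 0.070). The exact two-sided permutation test gave p = 0.071. The table gives a single value per gene, so muscle-specific splice forms of the MEF2 genes are not seen here.

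Tissue 1-1 stood at the top of the week 1 values for 7 of the 9 regulators and at the bottom for *MYF6*. By comparison, tissue 1-1 was the highest week 1 tissue for 32.4% of the 13394 genes whose mean FPKM-UQ reached 1. *PAX3* is among the 7, but its mean was below 1, so it is not among the 13394 genes. Relative to the mean of tissues 1-2 to 1-5, tissue 1-1 was at 1.92 for *PAX3*, 1.88 for *PAX7*, 1.55 for *MEF2C*, 1.39 for *MYF5*, 1.31 for *MYOD1*, 1.21 for both *MEF2A* and *MEF2D*, and 1.03 for *MYOG*. Thus the tissue that was highest in progenitor and commitment factors was also the lowest in *MYF6*. The coefficient of variation was lower at week 3 than at week 1 for 8 of the 9 regulators, *PAX3* among them, and for 76.1% of the 13394 genes. Ranges of the weeks were apart for 7 of the 8 regulators above that mean, against 30.7% of those genes. For 5 of them week 3 was lower, against 14.1% of those genes, and for 2 of them week 3 was higher, against 16.6%.

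**Figure D3:**
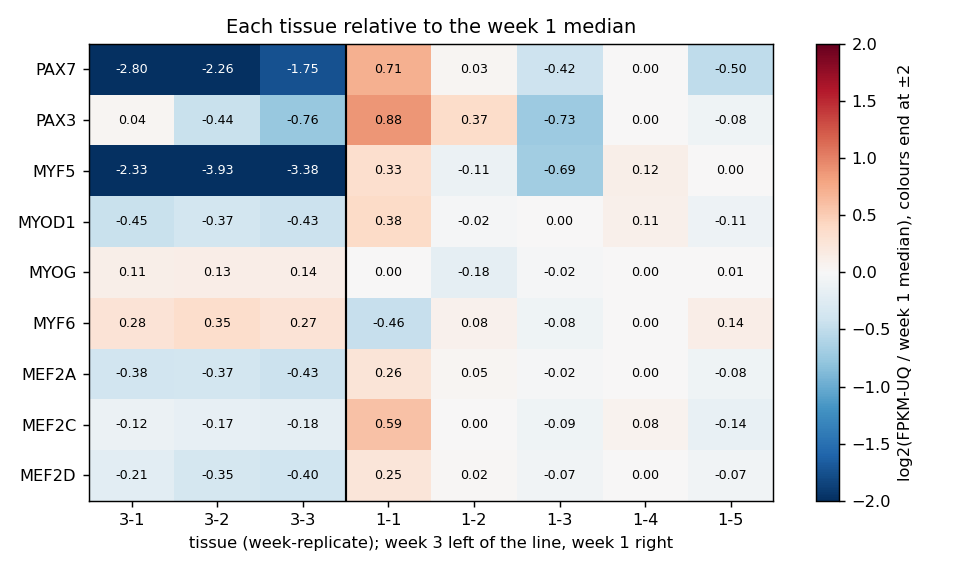
Each cell gives the log2 ratio of a regulator's FPKM-UQ in a tissue to its median at week 1, with week 3 tissues left of the line and week 1 tissues right of it. The *PAX7* and *MYF5* rows run from −1.75 to −3.93 in the week 3 tissues, and the column of tissue 1-1 is above the median for every gene except *MYF6* (−0.46), with *MYOG* at 0.00.

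To compare progenitor, commitment, and late factors with each other, log2 ratios of FPKM-UQ were formed within each tissue for 10 pairs of regulators, so that the scaling between tissues cancels. For 7 of the 10 ratios the ranges of the weeks were apart, each with p = 0.0357 in an exact two-sided permutation test. The Benjamini-Hochberg adjusted p over the 10 pairs was 0.051 for each of these, so no ratio passed 0.05 after adjustment, and the design allows no smaller p for a single pair than 0.0357. The ratios are therefore given as sizes.

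*PAX7* over *MYOG* was −7.36 ± 0.51 at week 3 and −4.96 ± 0.49 at week 1, a difference of −2.40 on the log2 scale. *MYF5* over *MYOD1* was −8.02 ± 0.85 at week 3 and −5.36 ± 0.32 at week 1. The ratio of these commitment factors was thus 6.31-fold lower at week 3. *MYF6* over its neighbour *MYF5* was 5.96 ± 0.84 at week 3 and 2.45 ± 0.52 at week 1, an 11.4-fold shift.

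*MYOD1* over *MYOG* was −0.07, −0.01, and −0.08 in tissues 3-1 to 3-3, against 0.87, 0.65, 0.51, 0.60, and 0.38 in tissues 1-1 to 1-5. The ratio was 1.57-fold lower at week 3, and the spread at week 3 (SD 0.04, n = 3) was small beside that difference. *MEF2C* over *MYOG* differed by −0.41 and *MEF2D* over *MEF2A* by 0.09, and both were without overlap. For *MEF2D* over *MEF2A* the weeks nearly met, with tissue 3-2 at −1.076 and tissue 1-5 at −1.086. Its difference was 0.040 without tissue 3-1. The ratios of *PAX3* to *MYOG* (−0.65, exact two-sided permutation test, p = 0.21), *MYF6* to *MYOG* (0.20, p = 0.25), and *MEF2C* to *MEF2A* (0.19, p = 0.14) overlapped between weeks, and their p adjusted over the pairs was between 0.18 and 0.25.

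**Figure D4:**
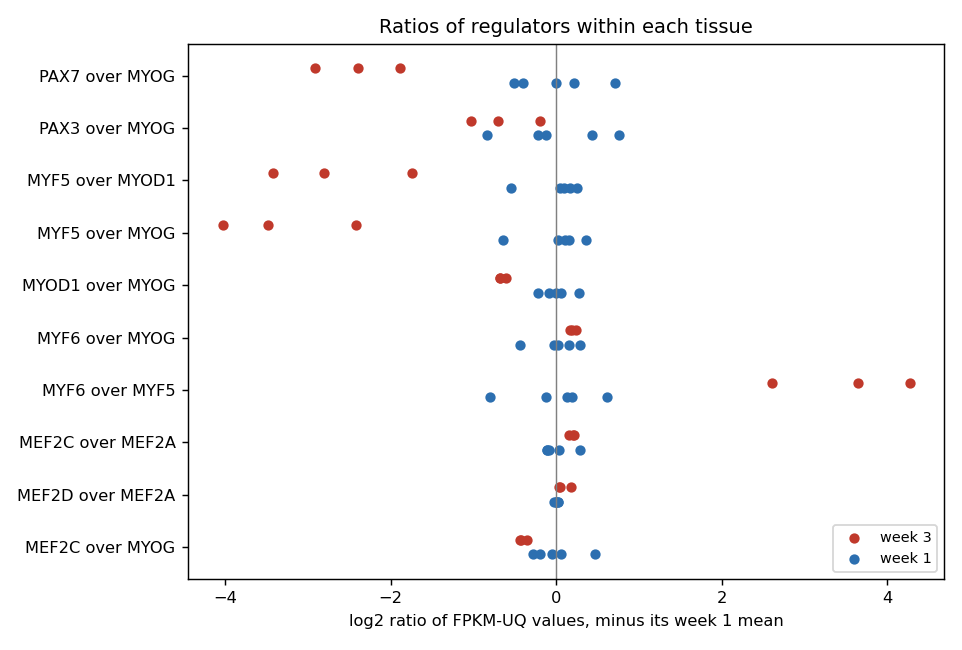
Log2 ratio of the FPKM-UQ values of 2 regulators within each tissue, shifted so that the week 1 mean is 0, for 3 week 3 tissues (red) and 5 week 1 tissues (blue). The mean of week 3 lies at −2.40 for *PAX7* over *MYOG*, at −3.31 and −2.66 for *MYF5* over *MYOG* and over *MYOD1*, at 3.51 for *MYF6* over *MYF5*, and at −0.65 for *MYOD1* over *MYOG*, while the ratios within the MEF2 family lie at 0.09 and 0.19.

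Within the MyoD family, the summed FPKM-UQ of *MYF5*, *MYOD1*, *MYOG*, and *MYF6* was 424.3 to 439.2 at week 3 and 452.0 to 543.2 at week 1. The share of *MYOD1* in that sum was 43.8% ± 0.560 at week 3 and 55.0% ± 3.53 at week 1. The share of *MYOG* was 45.5% ± 0.627 at week 3 and 36.2% ± 2.35 at week 1. *MYF6* took 10.5% ± 0.162 at week 3 and 7.44% ± 1.55 at week 1, and *MYF5* took 0.189% ± 0.113 at week 3 and 1.36% ± 0.268 at week 1. Because gene length does not enter these shares, only their change between weeks is comparable. In the MEF2 family the summed FPKM-UQ was 441.2 to 467.1 at week 3 and 514.4 to 724.3 at week 1, where the upper end was tissue 1-1. The share of *MEF2A* was 40.1% ± 0.715 at week 3 and 42.7% ± 1.92 at week 1. *MEF2C* took 40.2% ± 0.405 at week 3 and 37.6% ± 2.77 at week 1, and *MEF2D* took 19.7% ± 0.805 at week 3 and 19.8% ± 0.892 at week 1. The weeks overlapped for each of these MEF2 shares.

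The bHLH factors bind DNA with E proteins and are held in check by inhibitors, and these partners were examined next. Of the E proteins, *TCF12* fell with a log2 fold change of −0.29 (SE 0.08, edgeR adjusted p = 0.017), and *TCF3* had −0.15 (SE 0.08, edgeR adjusted p = 0.21). The *TCF12* call was lost when any single week 3 tissue was left out. Of 17 bHLH inhibitors and repressors tested, 1 was higher and 6 were lower at week 3, against 11.5% higher and 12.0% lower among all genes tested, and the median of their log2 fold changes was −0.13. The ID proteins lack a DNA-binding region and sequester E proteins, and of these *ID1* rose, with a log2 fold change of 0.54 (SE 0.12, edgeR adjusted p = 0.0063). The log2 fold changes of *ID2*, *ID3*, and *ID4*, at 0.11, 0.11, and −0.07, did not pass the test.

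The repressors that fell included *ZEB1*, *ZEB2*, and *MSC*. *ZEB1* and *ZEB2* encode zinc-finger repressors that bind E-box-like sites, and their log2 fold changes were −0.43 and −0.58 (SE 0.10 for each, edgeR adjusted p = 0.0099 and 0.0019). *MSC* encodes musculin, a bHLH repressor of MyoD activity, and fell to 6.33 ± 1.07 FPKM-UQ at week 3, against 10.4 ± 0.873 at week 1. *HES1*, a Notch target, and *TWIST2* and *BHLHE41*, which encode bHLH repressors, also fell, with log2 fold changes of −0.47, −0.86, and −0.76. For *TWIST2* and *BHLHE41* the weeks overlapped, and tissue 1-1, at 8.11 and 12.9 FPKM-UQ, was below every week 3 tissue.

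The log2 fold changes of the other 7 inhibitors and repressors were −0.71 for *MDFI*, −0.13 for *MDFIC*, 0.03 for *TWIST1*, 0.23 for *SNAI1*, −0.21 for *BHLHE40*, −0.12 for *HEY1*, and −0.09 for *HEYL*, and none of these passed the test. Without tissue 1-1, 9 of the 17 were lower and 3 higher, while 3 were lower without tissue 3-1 or 3-3 and 4 without any other tissue. *TCF4*, *TCF21*, and *SNAI2* were not matched and are not analysed here.

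Of 22 other transcription factors of muscle progenitors that were tested, 3 were higher and 4 lower at week 3, and the median log2 fold change was −0.05. These counts are near the shares over all genes tested, of which 11.5% were higher and 12.0% lower, so the genes that follow are given as single values. *TCF15* (paraxis), a bHLH factor of the paraxial mesoderm, fell, with a log2 fold change of −2.01 (SE 0.41, edgeR adjusted p = 0.0042). *HMGA2*, a chromatin protein of embryonic and proliferating cells, had a log2 fold change of −1.59 (SE 0.18, edgeR adjusted p = 9.8e-05), and *BARX2*, a homeobox factor that acts with MyoD in mouse, had −0.98 (SE 0.26, edgeR adjusted p = 0.017). *EYA1*, whose protein acts with SIX-class homeobox factors above the MyoD family, was the fourth that fell, with −0.53 (edgeR adjusted p = 0.018). *FOXC2*, *DMRT2*, and *DACH1* rose, with log2 fold changes of 1.17, 1.10, and 1.08 (edgeR adjusted p = 0.018, 0.022, and 0.0028), and the weeks overlapped for *FOXC2*.

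*SIX4* encodes a homeobox partner of EYA proteins, and *LBX1* and *MEOX2* encode homeobox factors of limb muscle precursors. In the edgeR fit, log2 fold changes were −0.10 for *SIX4*, −0.22 for *LBX1*, and −0.08 for *MEOX2*, with adjusted p-values from 0.54 to 0.73. Leaving out tissue 1-1 brought the higher genes of this list to 8. Leaving out tissue 3-1 left 1 higher, and leaving out tissue 3-2 or 3-3 left 2 higher and 2 lower.

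Among 13 surface and signaling genes of muscle progenitors that were tested, 3 were higher and 4 lower at week 3, where 11.5% and 12.0% of all genes tested were higher and lower, and the median log2 fold change was −0.18. *FGFR4*, a growth factor receptor expressed in muscle progenitors under control of PAX3 in mouse, fell to 13.9 ± 1.23 FPKM-UQ at week 3, against 31.5 ± 8.09 at week 1. Its log2 fold change was −1.20 (SE 0.18, edgeR adjusted p = 7.4e-04). *CHRDL2*, *SPRY1*, and the adhesion gene *NCAM1* also fell, with log2 fold changes of −1.24, −0.35, and −0.35, and the weeks overlapped for *CHRDL2*. *SDC3* and *SDC4*, syndecans of the satellite cell surface, and *MEGF10*, a receptor of satellite cells in mouse, rose with log2 fold changes of 1.01, 0.55, and 0.78 (edgeR adjusted p = 0.020, 0.0057, and 0.012). Leaving out tissue 3-2 left 1 gene lower, leaving out tissue 3-1 or 3-3 left 2 lower, and 1 was higher without tissue 3-1 and 2 without tissue 3-3.

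Of 18 cofactors of MEF2 and SRF that were tested, 1 was higher and 7 were lower at week 3, against 11.5% higher and 12.0% lower over all genes, with a median log2 fold change of −0.22. *VGLL2*, a muscle cofactor of TEAD and MEF2 proteins, fell with a log2 fold change of −0.77 (SE 0.19, edgeR adjusted p = 0.011). *TEAD1* had −0.52, and the coactivator genes *NCOA2*, *CREBBP*, and *NCOA3* had −0.52, −0.43, and −0.38, and their edgeR adjusted p was 0.0029, 0.0075, 0.0042, and 0.024. *VGLL3* was the gene that rose, with a log2 fold change of 0.51 (edgeR adjusted p = 0.0038). In tissue 1-1, *NCOA2* was at 38.8 and *CREBBP* at 62.2 FPKM-UQ, above the week 1 means of 31.5 and 54.8. The number of lower cofactors was 10 without tissue 1-1, 4 without tissue 3-2, and 5 to 7 without any other tissue, and 2 were higher without tissue 1-1.

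Of 19 genes known as targets of the bHLH factors that were tested, *MEF2C* among them, 2 were called higher and 4 lower, and the median log2 fold change was −0.12. The share called higher was near the 11.5% over all genes tested, of which 12.0% were lower. *CDKN1A*, the cell cycle inhibitor p21, rose to 409.5 ± 13.1 FPKM-UQ at week 3, against 327.7 ± 36.6 at week 1, and the fast troponin *TNNI2* rose with a log2 fold change of 0.30 (edgeR adjusted p = 0.043). The sarcomeric actins *ACTA1* and *ACTC1*, the M-band gene *MYOM2*, and the acetylcholine receptor subunit *CHRND* fell, with log2 fold changes of −0.84, −0.71, −0.33, and −0.30. For *ACTA1* the weeks overlapped, with tissue 1-1 inside the week 3 range at 2459 FPKM-UQ. These calls changed when single tissues were left out, as did the number of genes called among all genes tested. Leaving out a tissue also makes its week smaller. That number was 3367 with all tissues, 5498 without tissue 1-1, and 2119 to 2181 without any single week 3 tissue. Without tissue 1-1, 5 of these targets were higher and 6 lower. Without any single week 3 tissue none of them was higher in edgeR, and 1 or 2 were lower. Leaving out tissue 1-2, 1-3, 1-4, or 1-5 left 1 higher.

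Of 17 genes known as targets of MEF2, 2 were called higher and 8 lower, against 11.5% higher and 12.0% lower among all genes tested, and their median log2 fold change was −0.24. *CSRP3*, which encodes muscle LIM protein, fell to 162.0 ± 5.44 FPKM-UQ at week 3, against 307.1 ± 20.6 at week 1. *NR4A1*, a nuclear receptor, *PPARGC1A*, a coactivator of mitochondrial genes, and *KLHL40*, a protein that stabilizes thin filaments, had log2 fold changes of −0.67, −0.65, and −0.48 (edgeR adjusted p = 0.0057, 0.012, and 5.3e-04). *HSPB7*, a small heat shock protein, and the myoglobin gene *MB* rose, with log2 fold changes of 1.10 and 3.61. The count of lower genes was 5 without tissue 3-2 and between 6 and 10 with any other tissue left out. This list and that of MEF2 cofactors share *SMYD1*, and it shares *MYOM1* with the list of bHLH targets.

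**Figure D5:**
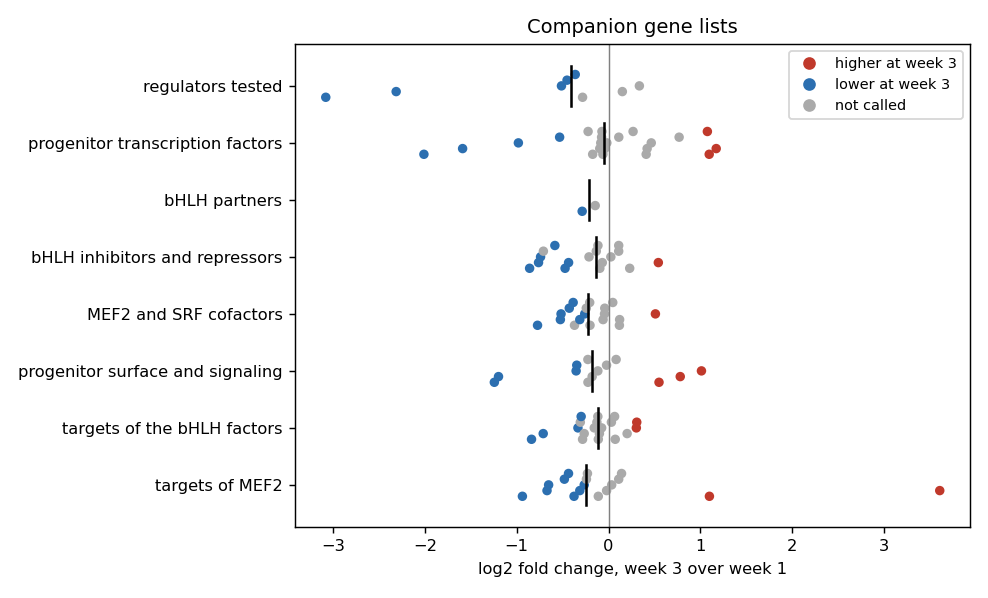
Log2 fold change, week 3 over week 1, of each gene tested in the regulators and 7 companion lists, with genes called higher in red, called lower in blue, and not called in grey, and a black line at the list's median. The medians run from −0.41 for the regulators to −0.05 for other progenitor transcription factors, and every list other than the bHLH partners and the regulators holds genes called in both directions.

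To place each regulator that changed among all genes, the 3 genes with the most similar course over the 8 tissues were found among 10544 genes with a symbol, a test result, and a mean FPKM-UQ that reached 1. Likeness was the root-mean-square difference of log2 CPM after each gene was centred on its mean. The genes nearest to *MYOD1* were *ZEB1* (0.045), *KIF24* (0.046), and *ARHGAP31* (0.047), at nearly equal distances. Of these, *ZEB1* is a repressor from the list above. *KLHL40* (0.040) was the second nearest to *MEF2A*, after *EXTL3* (0.035) and before *PKIA* (0.049), and those nearest to *MEF2D* were *KMT2D* (0.034), *USP28* (0.042), and *ITGA6* (0.047). *PAX7* and *MYF5* had no gene as close. Their week 3 counts were low, at 15 to 28 and 6 to 25, and spread from low counts enters this measure. Their larger distances are therefore not taken as a sign of unusual courses. Those nearest to *PAX7* were *DHDH* (0.299), *MHM2* (0.341), and *F10* (0.361), and those nearest to *MYF5* were *CCR2* (0.446), *C1QB* (0.465), and *CD48* (0.474).

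*CCR2*, *C1QB*, and *CD48* are known as genes of macrophages and other leukocytes, whose markers also moved with the week. These genes were picked for their likeness to *MYF5*, so their fall follows from that choice and is no separate result. *C1QB* was at 2.13 ± 0.325 FPKM-UQ at week 3 and 20.2 ± 2.89 at week 1. *CCR2* and *CD48* were near the limit of detection at week 3, with means of 0.426 and 0.573 FPKM-UQ. Of 6 leukocyte markers tested, 4 were lower at week 3 (*CSF1R*, *SPI1*, *LAPTM5*, and *CD74*), against 12.0% of all genes tested. For *CD74* the weeks overlapped, and tissue 1-1, at 19.4 FPKM-UQ, was below every week 3 tissue. *PTPRC*, the leukocyte marker CD45, and *MRC1* had log2 fold changes of 0.16 and 0.43 and did not pass the test. None of the 6 markers was at 0. Their summed FPKM-UQ was 44.4 to 49.4 at week 3 and 63.9 to 109.6 at week 1. Within week 1 the sum was lowest in tissue 1-1, at 63.9, where *MYF5* and *PAX7* were highest. The part of these cells in the results for the regulators was not tested.

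Fibroblast markers changed in both directions, with 2 of 10 higher and 5 lower at week 3, and none was at 0. Among all genes tested, 11.5% were higher and 12.0% lower. *PDGFRA*, a marker of muscle connective tissue progenitors, fell with a log2 fold change of −1.60 (SE 0.20, edgeR adjusted p = 1.6e-04). *LUM* (−0.94), *COL3A1* (−0.85), *TCF7L2* (−0.45), and *DCN* (−0.32) also fell, and *POSTN* (0.49) and *FAP* (0.27) rose. For *DCN* the weeks overlapped, and tissue 1-1, at 1362 FPKM-UQ, was below every week 3 tissue. The summed FPKM-UQ of the list was 23095 to 23770 at week 3 and 20506 to 31739 at week 1, with tissue 1-1 the lowest. Without tissue 1-1, 3 fibroblast markers were higher and 7 lower, without tissue 3-1, 3-2, or 3-3 there was 1 higher, and without tissue 1-2, 1-3, 1-4, 3-2, or 3-3 there were 3 lower. Of 16 proliferation genes tested, 1 was called in edgeR's quasi-likelihood test, as higher, against 23.5% of all genes called in either direction. That gene has another symbol in the table and was matched through a synonym, so its identity is uncertain. The summed FPKM-UQ of the proliferation genes was 304.5 to 323.7 at week 3 and 257.2 to 321.6 at week 1. Without tissue 1-1, 3 were higher and 1 lower, and without any other tissue except 1-5 none was called in edgeR. The part of fibroblasts and of dividing cells in the results for the regulators was not tested.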

How the data were processed

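RNA of 3 week 3 and 5 week 1 tissues was sequenced on an Illumina NovaSeq. Per the labels, STAR 2.7.3a, Partek, and the builds galGal6 and GRCg6a entered the processing. The authors deposited an estimated count for each gene that was not normalized (80.98% of these were exactly whole as written, with no tolerance), and a normalized signal that they call FPKM-UQ. In each deposited table all 8 columns matched a sample by its description. The signal equals the estimated count plus 1 over 1 factor per tissue, within 0.000787%.

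Estimated counts were rounded and fitted with edgeR 4.0.16 (TMM, filterByExpr, quasi-likelihood test, no replicate block) in R 4.3.3, with Benjamini-Hochberg adjustment over 14311 genes. The standard error is the log2 fold change over the square root of F. In simulated counts of this comparison, 200 of 14311 genes were changed 2-fold. Of the changed genes that passed the filter, 77.0% were recovered at an adjusted p below 0.05 in edgeR. Smaller changes were not simulated. Exact permutation tests were run in Python 3.11.15 and checked against scipy 1.17.1.

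The regulators, companion lists, and pairs were chosen with earlier results of these data known. Companion genes were matched by symbol or RefSeq synonym, and 30 of 192 were not matched and are not analysed here. Named genes are the 9 regulators, up to 6 called genes with the largest change per list, all bHLH partners and inhibitors, and the 3 genes nearest to each called regulator. *EYA1*, *SIX4*, *LBX1*, *MEOX2*, *NCAM1*, *FAP*, *PTPRC*, *MRC1*, *MYH11*, *PTPRQ*, and *LIN7A* were named after their values were seen. The alternatives were DESeq2 1.42.0, 2 other edgeR normalizations, 2 other filters, the replicate block, limma 3.58.1 on log2 FPKM-UQ after adding 1 or 0.1, and leaving out single tissues.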

Additional observations from a re-analysis of the deposited data

Results flagged for a closer look

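Of 19 sets of week 1 values examined (9 regulators and 10 ratios), 4 held a tissue whose gap to the nearest other tissue was too large a part of the whole range by Dixon's 95% critical value, which about 1 in 20 such sets exceeds by chance. *MYOG* was at 158.0 FPKM-UQ in tissue 1-2, where the next lowest week 1 tissue was at 176.7. *MEF2C* was at 306.1 FPKM-UQ in tissue 1-1, where the next highest was at 214.2. *MEF2D* was at 132.2 FPKM-UQ in tissue 1-1, where the next highest was at 113.4. The log2 ratio of *MYF5* to *MYOD1* was −5.91 in tissue 1-3, where the next lowest was −5.32. Sets of 3 week 3 tissues were not examined in this way.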

How the results depend on the processing

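*PAX7*, *MYF5*, *MYOD1*, and *MEF2A* were called lower under all 16 alternatives, and *MEF2C* was called under none. No regulator changed direction. *MYF6* passed the threshold with upper-quartile factors (0.35), DESeq2 (0.33), and limma on log2(FPKM-UQ + 1) and log2(FPKM-UQ + 0.1) (0.35 and 0.36). When single tissues were left out, the log2 fold change ranged from 0.25 to 0.39 for *MYF6*, from 0.12 to 0.16 for *MYOG*, and from −0.42 to −0.30 for *MEF2D*. The week 3 minus week 1 difference of the log2 ratio was then −3.12 to −2.27 for *MYF5* over *MYOD1*, −3.76 to −2.95 for *MYF5* over *MYOG*, and 0.040 to 0.11 for *MEF2D* over *MEF2A*. Genes called at an adjusted p below 0.05 in edgeR numbered 3367, with 2119 to 5498 after leaving out a tissue, the highest without tissue 1-1. Counts for the companion and marker lists equalled those reported in 191 of 210 recounts under other settings and in 145 of 240 with a tissue left out, where 75 were lower and 20 higher. The cause of these changes was not tested.

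Weeks share replicate numbers 1 to 3, but same-numbered tissues did not deviate together (correlations of −0.010 to 0.025 over 14311 genes), not every tissue correlated best with its own number, and the numbers were not taken as a pairing. With the replicate number as a block, 2073 genes were called, 18 of 30 list counts were lower and none higher, the log2 fold change of *MYF6* was 0.43 (adjusted p = 0.041, edgeR), and the block changed no other regulator's call. Depth limits *PAX3*, with at most 16 counts per tissue, and *MYF5* at week 3, with 6 to 25.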

Other observations

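Some marker lists beside those above moved with the week. Of 5 smooth muscle markers tested, 3 were higher at week 3, against 11.5% of all genes tested. The other 2 did not pass edgeR's quasi-likelihood test. *ACTA2*, smooth muscle actin, *TAGLN*, and *MYLK* rose with log2 fold changes of 2.04, 2.51, and 1.37, while *MYH11*, the smooth muscle myosin, was at 3.60 ± 0.899 FPKM-UQ at week 3 and 2.71 ± 0.915 at week 1 and did not pass the test. The summed FPKM-UQ of the list was 3328 to 3366 at week 3 and 703.6 to 989.9 at week 1, with no overlap.

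For the lists that follow, the shares over all genes tested were 11.5% higher and 12.0% lower. Of 6 cartilage and tendon markers, 1 was higher (*SCX*, a tendon factor, log2 fold change 1.19) and 2 were lower (*COL2A1*, −1.63, and *ACAN*, −0.94). The weeks overlapped for *ACAN*, with tissue 1-1 inside the week 3 range at 6.28 FPKM-UQ. Without tissue 3-2, no gene of this list was called higher and 1 was lower, and without tissue 1-1 there were 2 higher and 3 lower in edgeR. The summed FPKM-UQ was 36.7 to 37.7 at week 3 and 53.1 to 81.1 at week 1, where the highest was tissue 1-1. Of 4 Schwann cell markers tested, *S100B* was higher (1.19), and it was not called when any single week 3 tissue was left out. Of 4 endothelial markers tested, *PECAM1* was lower (−0.53). Of the 7 muscle markers tested, *ACTN2* and *ACTA1* were lower, none was higher, and 5 did not pass the test. All of these markers except *ACTN2* are also on the list of bHLH targets, so the 2 lists are not separate results. The log2 fold change of *ACTN2* was −0.64 (edgeR adjusted p = 2.5e-04). With a tissue left out, 1 to 3 muscle markers were lower and at most 1 was higher.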
